A study of Mus musculus with 4 samples.

Results

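The genes Erbb3, Pmp22, Mbp and Prx, which belong to Schwann cells and peripheral myelin, were followed in an ATAC-seq comparison of female and male mouse fat. They were taken from the deposited gene table by symbol, 4 of 11993 genes, and were linked there to 6 of 12477 merged open regions. The tissue was frozen subcutaneous white adipose tissue of wild-type mice, with 2 female and 2 male libraries; no treatment is named, and age and strain are not given in the sources. Whether same-sex libraries were made from separate animals is not stated, and the p-values below therefore measure the spread between these libraries, which may be technical. In ATAC-seq the Tn5 transposase tags accessible DNA, and the value analysed is the peak height, the scaled number of overlapping tags at the top of a region. Where a gene has several regions, the authors deposited their mean. Pairs of values are given with library 1 of a sex before library 2. The number of reads per library is unknown, and no counting error was put on a height.

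Schwann cells wrap the axons of peripheral nerves, and nerves run through subcutaneous fat. Their survival and their myelination depend on neuregulin from the axon, which is bound by ERBB3 together with ERBB2 and acts through the transcription factors SOX10 and EGR2. PMP22 sits in compact myelin, MBP holds its cytoplasmic faces together, and periaxin, the product of Prx, ties the Schwann cell membrane to its cytoskeleton through DRP2 and dystroglycan. ERBB3 is also made by epithelial cells, those of the mammary gland included, so an open region in Erbb3 is not by itself a mark of Schwann cells.

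The height of Erbb3 was lower in males, and its place among the 4 genes differed between the sexes. Prx was the highest of the 4 in every library. Erbb3 was the second highest in both female libraries and the lowest in both male libraries. Some of these places rest on small gaps. In female 1 Erbb3 was at 22, Mbp at 21 and Pmp22 at 20, and in male 2 Erbb3 was at 3.67 and Mbp at 5.14. For each of the 4 genes, both males stood below both females, as they did for 76.4% of all genes. Erbb3 alone passed the test over all genes, as 1 of 71 genes lower in males, or 0.592% of those tested. No gene was called higher (0% of those tested; 1 at an unadjusted p under 0.05, limma). Without female 1, male 1 or male 2 the 71 became 19, 6391 or 0 (986 lower at an unadjusted p under 0.05 in the last case, limma). Pmp22, Mbp and Prx lay within 0.05 of the median log2 difference of all genes.

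**Figure D1:**
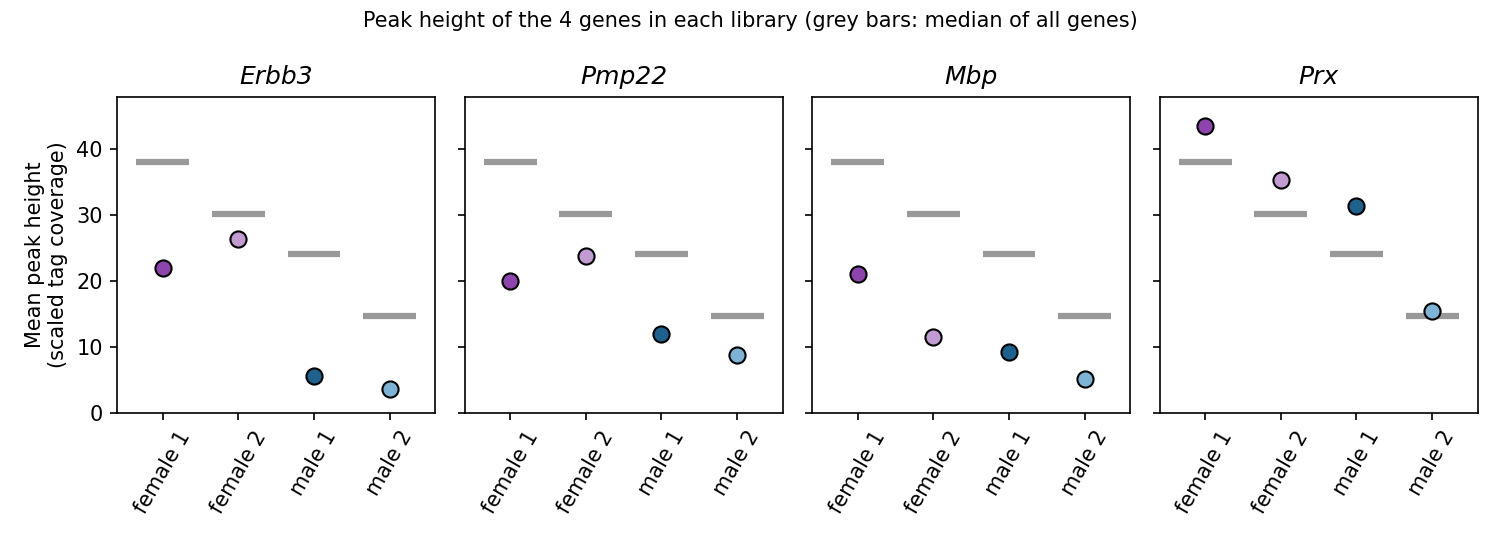
Peak height (scaled tag coverage) of each gene in the 4 libraries; points are single libraries and grey bars the median of all 11993 genes in that library. Erbb3 lies at 22 and 26.3 in females and at 5.66 and 3.67 in males, while Prx is the highest of the 4 genes in each library.

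The libraries themselves differed in height. The median over all genes was 38.0 and 30.2 in the female libraries and 24.0 and 14.7 in the male libraries. On the log2(height + 9) scale used for every test here, male values were lower by a median of 0.63 (male minus female, -0.63). A difference of about that size is therefore the common one in this table, and each value below is also given relative to it. The labels name no batch. Among markers of fat, 13 of 18 adipocyte genes were measured, including Lipe, hormone-sensitive lipase, the transcription factor gene Cebpa and the lipid droplet gene Cidec. The regions of Lipe were shared wholly with Cxcl17, and that of Cidec with Ttll3 and Rpusd3. None of the 13 passed (limma), 5 had an unadjusted p under 0.05 (as 31.4% of all genes did), and their median relative difference was -0.10.

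Erbb3 (GeneID 13867) was linked to a single region of 79 bp that lies within it on chromosome 10, at 128583853 to 128583931 in mm10. The gene spans 128569368 to 128589501 on the minus strand, and exon and intron positions were not used here. The region's summit lay 5597 bp from the start of the gene, and no other gene was linked to it. The nearest other merged region was 34532 bp away and was linked to Pa2g4, Rpl41 and Zc3h10. The height was 22 and 26.3 in the female libraries and 5.66 and 3.67 in the male libraries. The sexes did not overlap: the lower female exceeded the higher male by 16.3, whereas the females differed from each other by 4.30 and the males by 1.98. Females had a mean of 24.2 ± 3.04 and males of 4.66 ± 1.40 (SD, n = 2 each), a ratio of 5.18. The log2 difference was -1.28 (SE 0.346, limma with Benjamini-Hochberg adjustment over all genes, adjusted p = 0.0436). Set against the median gene, the difference was -0.65. By adjusted p Erbb3 stood at place 60 of the 71 called genes. Median centring of the libraries ended the call (limma adjusted p = 0.609). Without female 1, female 2 or male 2 the call was also lost (limma adjusted p = 0.348, 0.204 and 0.538), and without male 1 it held (-1.38, limma adjusted p = 0.00416), in a fit that called 6391 genes lower.

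The height of Erbb3 was low for this table. The share of genes at the same or a lower height was 12.9% and 39.3% in the females and 1.95% and 2.68% in the males. Heights of genes with a single region are whole multiples of 1 step per library. The region of Erbb3 stood at 22 and 32 steps in the females and at 8 and 5 steps in the males. A peak was called in female 1 alone, although the region was higher in female 2. Of the genes with a single region whose height in female 2 lay within 2 steps of that of Erbb3, 71.2% had a called peak there. In male 1 the same share was 0.424% (236 genes), and in male 2 it was 0% (540 genes). Across all 1276 genes with a single region and a peak in female 1 only, female 2 was at least as high in 116 (9.09%). Erbb3 and Mbp both belong to that set, of which 31 (2.43%) were called lower in males, against 0.592% of all genes. The set was chosen by a peak in female 1 and none in males, so its share is not independent of the comparison. The median log2 difference of the set was -0.63, as over all genes. The cause of the raised share was not tested. The Erbb3 region is in the table only through its peak in female 1. Of all 12477 merged regions, 2876 had a peak in female 1 alone and 344 in male 1 alone.

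**Figure D2:**
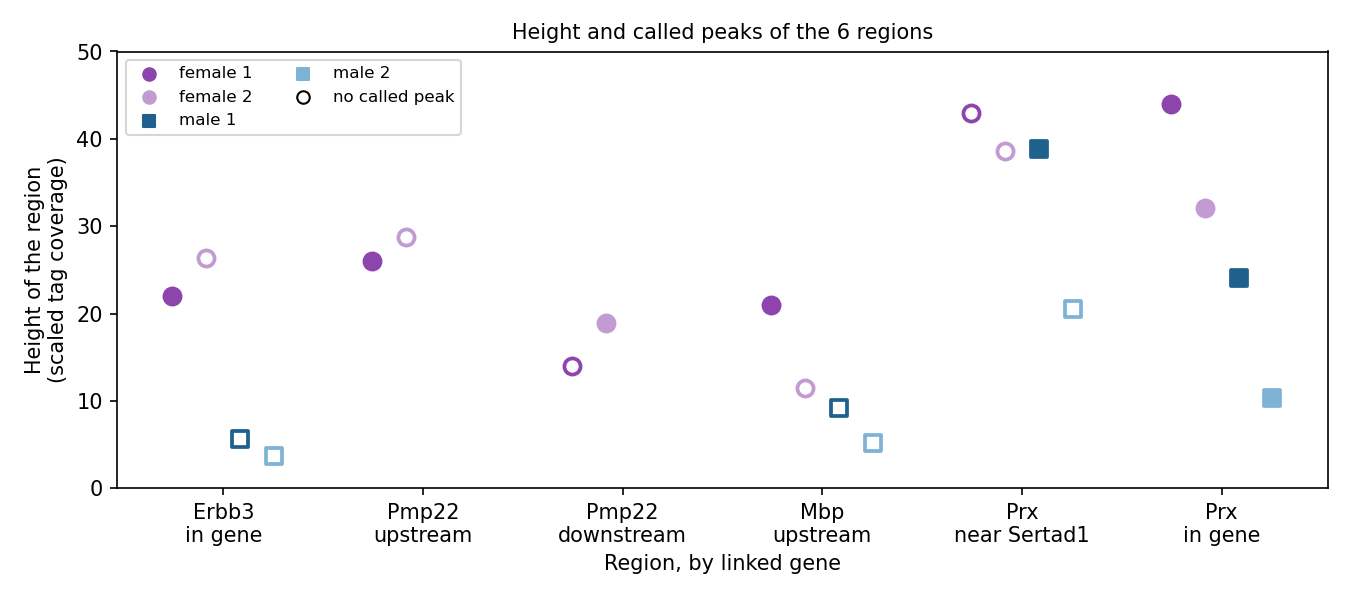
Height (scaled tag coverage) of each of the 6 regions, by linked gene; circles are female and squares male libraries, and open symbols mark libraries without a called peak. The Erbb3 region has no called peak in female 2 at a height of 26.3, and the region of Prx near Sertad1 has none in female 1 at 43.0; the 2 regions of Pmp22 could not be separated in males.

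Erbb3 was also set against the other 3 genes within each library. Its log2 value minus their mean was -0.21 and 0.19 in the females and -0.77 and -0.53 in the males. Both males lay below both females, and the difference of the means was -0.64. The exact permutation test over the 4 libraries, two-sided, gave p = 0.333, the smallest that 2 libraries against 2 can give, so no set of values could have passed and the difference is a description only.

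Pmp22 (GeneID 18858), a membrane protein of compact myelin whose gene dosage underlies the common inherited neuropathies, was linked to 2 regions on chromosome 11, each with a peak in a single female library. The gene height averages both, at 20.0 and 23.8 in the females and 12.02 and 8.81 in the males. Again the males were below the females, by at least 7.98. Means of 21.9 ± 2.71 for females and 10.4 ± 2.27 for males (SD, n = 2 each) gave a log2 difference of -0.67 (SE 0.355), which did not pass (limma adjusted p = 0.168) and lay at -0.04 from the median gene.

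The first Pmp22 region covered 111 bp (63130667 to 63130777) and had its peak in female 1, at 26.0. In female 2 it had no called peak and a height of 28.8, taken as the gene's mean times its 2 regions minus the summit of the other region. It lies 758 bp before the start that the deposited table gives. In the later RefSeq annotation of the same assembly (GRCm38.p6) the gene begins further upstream, at 63128982, so that the region falls inside the gene, between that start and the next at 63131457. The second region covered 86 bp beyond the end of the gene (63162942 to 63163027), 31498 bp from the start, with a peak in female 2 at 18.9 and a height of 14.0 in female 1. Neither region was linked to another gene, and in males the 2 could not be separated. The first region was the higher of the 2 in both females.

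None of the 4 RefSeq start windows of Pmp22 overlapped a merged region. The closest began 430 bp after the first region. Its 250 bases before the start (GRCm38.p6, chr11:63131207-63131456, plus strand, RefSeq) are printed here as the start nearest to an open region of the gene, with capitals for matches to CCAAT and to the GC box GGGCGG on either strand:
Pmp22 start window: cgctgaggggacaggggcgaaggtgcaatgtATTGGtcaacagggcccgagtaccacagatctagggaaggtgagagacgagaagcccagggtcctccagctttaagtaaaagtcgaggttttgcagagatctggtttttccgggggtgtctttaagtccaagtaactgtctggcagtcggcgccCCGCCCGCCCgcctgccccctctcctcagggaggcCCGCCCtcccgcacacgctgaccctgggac
This window held 1 CCAAT match and 3 GC box matches, of which 2 overlap. Of 32851 RefSeq start windows of the same length, 33.8% held CCAAT and 32.7% a GC box. The letters were chosen after the sequences had been seen, and a match is a description of the letters only.

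Mbp (GeneID 17196), myelin basic protein, was linked to a region of 84 bp on chromosome 18 (82470181 to 82470264), 4883 bp upstream of the gene (82475123 to 82585637, plus strand). No other gene was linked to it, and a peak was called in female 1 alone. The height was 21.0 and 11.5 in the females and 9.19 and 5.14 in the males. The females differed by 9.49, and the lower female exceeded the higher male by 2.32, so the sexes were separated by less than the spread between the females. Females averaged 16.3 ± 6.71 and males 7.16 ± 2.86 (SD, n = 2 each). The log2 difference of -0.63 (SE 0.343) did not pass (limma adjusted p = 0.176) and equalled the median of all genes to the second decimal. Without female 1 it was -0.35 and without female 2 -0.90, at 0.14 and -0.14 from the median gene of those fits. Mbp had the lowest mean height of the 4 genes, 11.7, with 4.01% of genes at or below it in female 2 and 11.3% in female 1. The next merged region was 7865 bp away, had a peak in female 1, and was linked to no gene.

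Prx (GeneID 19153) encodes periaxin, a scaffold protein of myelinating Schwann cells, and alone of the 4 genes had a peak in all 4 libraries. Such peaks were present for 35.9% of all genes. The height of Prx was 43.5 and 35.3 in the females and 31.5 and 15.4 in the males. Male 1 lay closer to the females than to male 2: the lower female exceeded it by 3.89, and the males differed by 16.0. Females averaged 39.4 ± 5.77 and males 23.4 ± 11.3 (SD, n = 2 each). The log2 difference of -0.62 (SE 0.395) did not pass (limma adjusted p = 0.218) and lay 0.01 above the median gene. Without male 1 it was -0.98 and passed (limma adjusted p = 0.0195) as 1 of those 6391 genes, and without male 2 it was -0.25. Between 54.8% (male 2) and 74.8% (male 1) of genes had the same or a lower height.

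**Figure D3:**
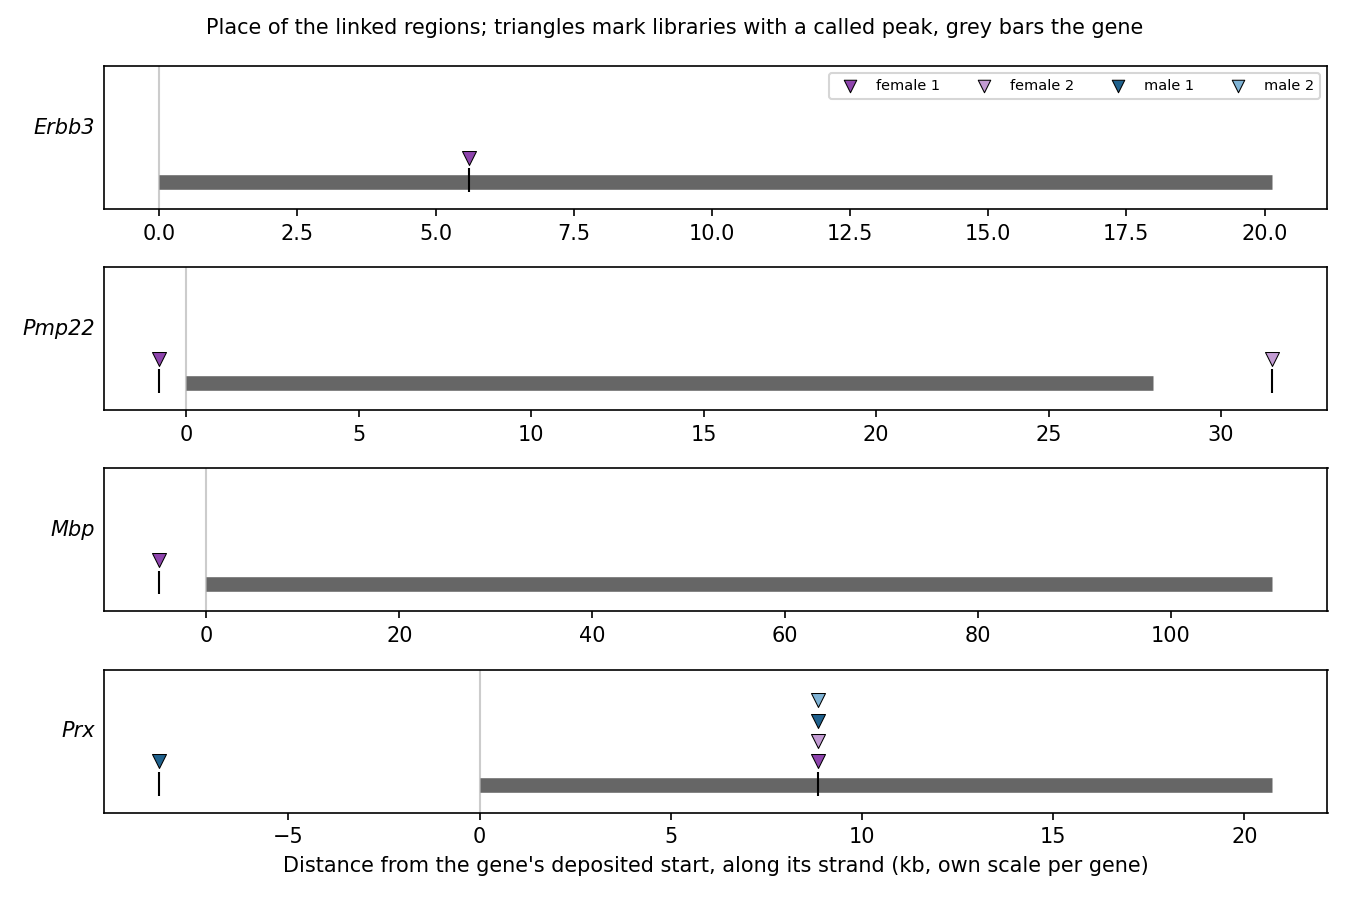
Place of the 6 regions relative to the deposited start of each gene (kb along its strand, own scale per gene; grey bars are genes). Triangles mark the libraries with a called peak: a single library at 5 regions, and all 4 libraries at the region inside Prx. Of all 12477 merged regions, 40.7% had a peak in 1 library and 19.9% in all 4.

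The 2 regions behind Prx lay far from its start and close to other genes. The region inside the gene (chromosome 7, 27507997 to 27508347, 351 bp) was 8900 to 8996 bp from the start of Prx and had a peak in all 4 libraries, with summits of 44.0 and 32.1 in the females and 24.0 and 10.3 in the males. No other gene was linked to it in the deposited table. In the RefSeq annotation the start window of Gm15541, a long noncoding RNA gene that runs within Prx on the opposite strand (27502719 to 27507959), covers 213 of its 351 bases. The overlapping stretch is printed as the only part of the members' open regions for which a sequence was at hand, on the strand of Gm15541 (GRCm38.p6, chr7:27507997-27508209, minus strand, RefSeq), with capitals for the GC box and for the SOX core letters ACAAAG. The 250 bases before the start of Prx itself (chr7:27499074-27499323, plus strand) are set under it as the promoter that no merged region overlapped, 8057 bp from the nearest, with capitals for CCAAT and for the TEAD letters GGAATG on either strand:
Prx open region, Gm15541 side: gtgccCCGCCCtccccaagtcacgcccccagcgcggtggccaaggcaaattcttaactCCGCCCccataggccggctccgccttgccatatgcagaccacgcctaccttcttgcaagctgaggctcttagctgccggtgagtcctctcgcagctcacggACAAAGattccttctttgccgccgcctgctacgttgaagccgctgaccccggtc
Prx start window: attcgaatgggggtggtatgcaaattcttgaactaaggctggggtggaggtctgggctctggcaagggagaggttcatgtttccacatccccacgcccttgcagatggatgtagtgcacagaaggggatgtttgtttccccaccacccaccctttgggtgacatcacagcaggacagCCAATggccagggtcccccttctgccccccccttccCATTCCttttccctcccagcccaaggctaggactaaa
The open stretch held 2 GC box matches and 1 ACAAAG match and was 63.4% G and C. Of 32851 RefSeq windows cut to the same 213 bases, 27.4% held a GC box and 22.5% ACAAAG or ACAATG, and the median G and C content was 51.6%. The start window of Prx held 1 CCAAT and 1 GGAATG match, which 33.8% and 12.6% of the 250-base windows held. The EGR letters GCGTGGGCG and GCGGGGGCG, searched on both strands, occurred in none of the 3 printed sequences and in 3.06% of the 250-base windows.

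The other region (27490872 to 27491017, 146 bp) lay 8348 bp upstream of Prx and 556 bp from the end of Sertad1, a transcriptional coregulator gene, to which it was also linked. Its peak was called in male 1 only, at 38.9. Heights without a called peak were 43.0 in female 1 and 38.6 in female 2. These were taken as the gene mean times 2 minus the summit inside Prx, although no interval spans that whole region; the same 43.0 and 38.6 followed from the 3 regions of Sertad1, without that summit. In male 2 the height was 20.6 if the region inside Prx stood at its summit of 10.3 there, and lower if not, since the interval of male 2 covers 231 of the 351 bp. At this region male 1 was therefore level with female 2, while at the region inside the gene male 1 was below both females. Of genes with a single region within 2 steps of 43.0 in female 1, 97.0% had a called peak, and of those within 2 steps of 38.6 in female 2, 94.4% did. Sertad1, which averages 3 regions, had a log2 difference of -0.74 (limma adjusted p = 0.176).

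**Figure D4:**
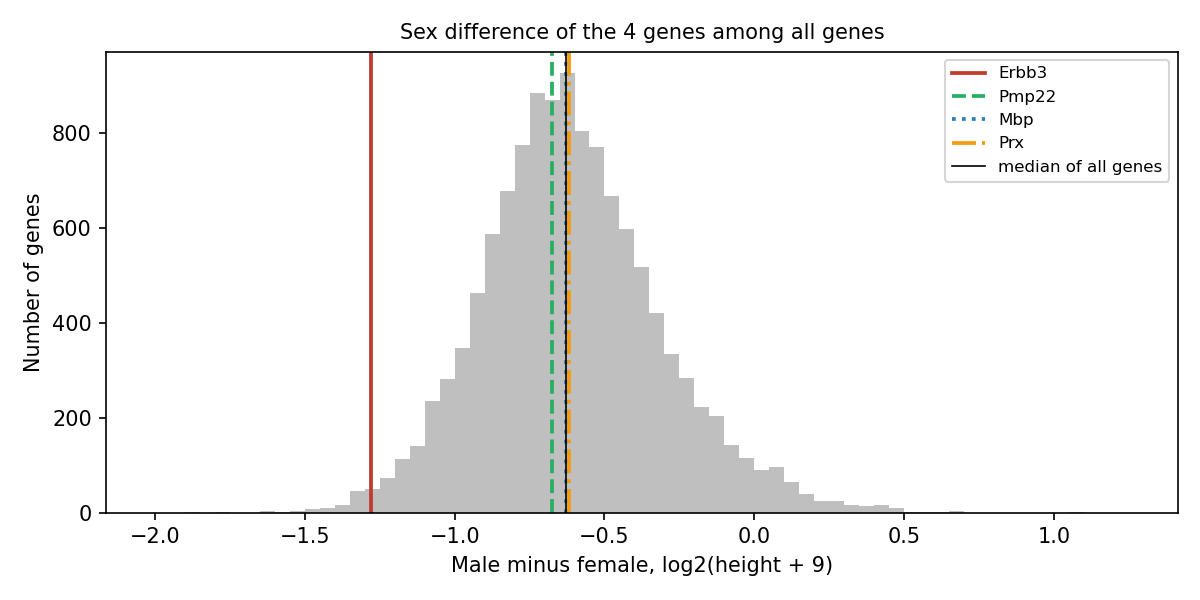
Number of genes by log2 difference, male minus female, on the log2(height + 9) scale, with vertical lines for the 4 genes and for the median of all 11993 genes (-0.63). Erbb3 lies at -1.28, with 0.842% of genes below it, and Pmp22, Mbp and Prx lie beside the median.

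Other genes of the Schwann cell and of myelin were counted from 4 lists, which with the members left out name 61 genes, 21 of them measured. None of the 21 passed over all genes (limma), against 0.592% of all genes, and 11 had an unadjusted p under 0.05, against 31.4%. Both males were below both females in 17 of the 21, against 76.4% of all genes. The median log2 difference was -0.76, or -0.14 relative to all genes, with a range of -0.59 to 0.55. A peak in all 4 libraries was present for 3 of the 21, Dag1, Jun and Yy1, against 35.9% of all genes.

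The receptors and adhesion molecules measured beside Erbb3 were Erbb2, Itga6 and Dag1. Erbb2, the signalling partner of ERBB3, had 33.0 and 21.8 in females and 16.3 and 13.6 in males (limma adjusted p = 0.210, 0.04 relative to the median). It averages 2 regions, and its regions were linked also to Grb7 and Mien1. Itga6, the laminin-binding integrin alpha 6, had 18 and 26.3 against 7.78 and 2.94 at a region 11 bp before its start. This order of the female libraries, female 2 above female 1, was also that of Erbb3 and Pmp22. It was not particular to them, since Jun and Fig4 of these lists had it too. So did markers of other cells, among them Cd34, Cfd, Cldn3, Apod, Myrf and Trp63. The difference of Itga6, -0.50 from the median gene, did not pass (limma adjusted p = 0.0804). Dag1, the dystroglycan gene, had 51.5 and 31.2 against 31.5 and 10.6, so that male 1 lay above female 2.

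Of the transcription factors, Yy1, Jun and Nab2 had the highest regions. Yy1 had 68.9 ± 17.2 in females and 42.6 ± 19.7 in males, and Jun, a factor of injured and repair Schwann cells that many other cells use, had 51.6 ± 0.204 and 29.1 ± 2.78 (SD, n = 2 each). Their differences from the median gene were -0.0022 and -0.04. Nab2, a cofactor of EGR proteins, had 41.8 ± 4.93 and 21.1 ± 7.75, from regions of which some were linked also to Stat6. Tead1, a partner of YAP, had 24.3 ± 5.27 and 9.33 ± 2.81. Tfap2a, a neural crest and epithelial factor, had 25.5 and 19.7 in females against 7.78 and 1.84 in males from regions inside the gene, and missed the threshold (limma adjusted p = 0.0552) at -0.59 from the median gene. Sox10, Egr2 and Pou3f1, which direct the Schwann cell lineage and its myelin genes, were not among the genes analysed here.

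Among the 10 other measured genes of the myelin list, the highest were Ndrg1, Mtmr2, Lgi4 and Pllp. Ndrg1, a gene of Schwann cells and many other tissues, had 46.4 ± 5.13 in females and 25.4 ± 14.1 in males at a region near its start. Mtmr2, a lipid phosphatase, had 35.4 ± 3.62 and 21.5 ± 11.6. Lgi4, a secreted Schwann cell protein, had 36.2 ± 8.19 and 14.6 ± 9.28, from a region shared wholly with Fxyd1 and Fxyd7. Pllp, plasmolipin, averaged 5 regions at 28.7 ± 7.28 and 13.2 ± 4.53. None of the 4 passed (limma adjusted p from 0.110 to 0.223). Of the markers of other Schwann cells, Plekhb1 had 28.0 and 16.4 against 6.36 and 8.08, and Gfap 23 and 12.3 against 9.19 and 16.2, from a region shared with Eftud2. Mag, S100b, Ncam1 and Cdh19 were not among the genes analysed here.

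**Figure D5:**
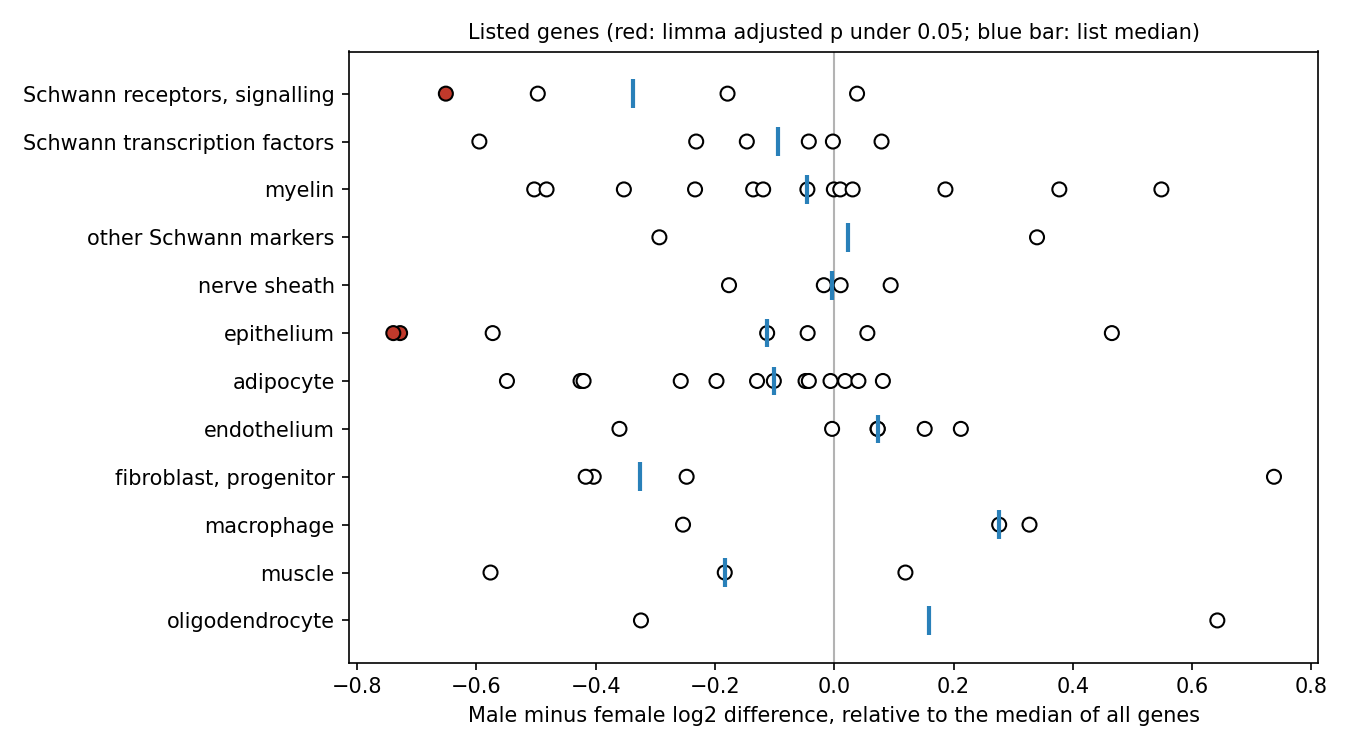
Log2 difference, male minus female, relative to the median of all genes, for each measured gene of 12 lists; red points passed the limma test over all genes and blue bars are list medians. Erbb3 is the red point of the first list, and the 2 red points of the epithelium list are St14 and Spint2.

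Markers of other cells of the pad were read the same way. None of 13 axon and neuron genes was measured, and none of 4 measured nerve sheath genes passed (limma, 1 at an unadjusted p under 0.05; median -0.0033 relative to all genes, with Slc2a1, Osr2 and Etv1 the highest). Beside the lower Erbb3, epithelial genes were read from a list of 24, of which 7 were measured. Of the 7, 2 were lower in males, against 0.592% of all genes, and 3 had an unadjusted p under 0.05 (limma), against 31.4%. The 2 were the protease gene St14 (22 and 15.6 against 2.12 and 1.47) and Spint2, which inhibits that protease (29.0 and 17.3 against 2.83 and 3.67). Both had a limma adjusted p of 0.0283 and a peak in female 1 only, through which they entered the table. The Spint2 region lay 33497 bp from its start, downstream, and was linked also to Yif1b and 2200002D01Rik. Like all 71 calls, those of St14 and Spint2 were lost with median centring. The summed height of the 7 was 242 and 182 in females and 129 and 66.1 in males. The median relative difference was -0.11, with a range of -0.74 to 0.47. Trp63, at the upper end, had a peak in male 1 only. The 3 highest, Esrp1, Rab25 and Grhl1, had peaks in all 4 libraries and did not pass. The region of Esrp1 lay downstream of the gene and was shared wholly with Dpy19l4. Those of Rab25 lay upstream and were shared wholly with Lamtor2 and Ubqln4, so these peaks may belong to the neighbouring genes. Epcam, Krt8, Krt18, Krt5, Krt14 and Cdh1 were not among the genes analysed here. The part of epithelial cells in the lower height of Erbb3 was not tested. In bulk tissue, fewer cells of a type and less open chromatin per cell cannot be told apart. The medians of the other lists relative to all genes were 0.07 for 6 endothelial genes (Vwf, Tek and Tie1 the highest) and -0.33 for 4 fibroblast and progenitor genes (Cd34, Pdgfrb and Ly6a). They were 0.28 for 3 macrophage genes (Cd68, Cd14 and Spi1), -0.18 for 3 muscle genes (Mb, Cnn1 and Myh11) and 0.16 for 2 oligodendrocyte genes (Myrf and Cspg4). Each of these lists had 0 calls (limma, in the same order 1, 3, 1, 2 and 1 at an unadjusted p under 0.05, which 31.4% of all genes had). The regions of Pdgfrb, Ly6a, Cd68, Spi1, Mb, Cnn1 and Myrf were shared wholly with other genes, so these peaks may belong to the neighbours.

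The genes with the most similar heights were found by the distance over log2(height + 9) in the 4 libraries, genes with the same regions counted once. For Erbb3 they were Gpr37l1, a receptor-like gene of glia, at 0.20, Ccdc65, a gene of motile cilia whose region was shared with Fkbp11, at 0.23, and Fam189a2 at 0.26. Gpr37l1 had 22 and 29.6 in females and 7.07 and 4.41 in males, and like Erbb3 a peak in 1 library. None of the 3 passed (limma adjusted p from 0.0572 to 0.0891). For Prx the distances were shorter, with Rgcc at 0.019, Poln at 0.044 and Gas2l1 at 0.047. For Pmp22 they were Kazn at 0.12, Slc35a2 at 0.15 and Dnajc19 at 0.16, and for Mbp Olfr70 at 0.11, Asap1 at 0.14 and Rbmx at 0.14. These are likenesses over 4 values only.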

How the data were processed

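Chromatin accessibility was measured in 4 libraries, and groups were taken from the titles. Per the submitters' processing notes, BWA and MACS2 2.1.0 were used with mm10; read filters and any Tn5 shift are not stated. The deposited heights are a signal, the tag coverage at a peak, given by the authors per gene as the mean of its regions. For genes with 1 region each height came to a whole number of steps (within 0.02 of a step), a step being 1.0, 0.822, 0.707 and 0.734 in female 1, female 2, male 1 and male 2, so the authors scaled each library before deposit. Where a library's interval spanned a whole region, height and summit were equal in 100.0% of cases, which covers the separation of the Pmp22 regions. No interval spans the region inside Prx, so the Prx heights rest on a second route through Sertad1 in the females and are an upper value in male 2. Positions are mm10, counted from 1.

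Sexes were compared with limma 3.58.1 (R 4.3.3, trend, no replicate block) on log2(height + 9) over all 11993 genes; 9 is their 5th percentile among values above 0, rounded up. The filter, a value above 0 in 2 libraries, removed no gene. Benjamini-Hochberg adjusted p under 0.05 was the threshold, and the test was tried on simulated libraries. On this scale fold changes of low genes are understated. Members and lists were chosen with earlier results of these data known. Named genes were the members, genes sharing their regions, the 5 highest measured genes of each Schwann cell and myelin list, the 3 highest of other lists, called genes of the lists, and the 3 most similar genes per member. All 4 members matched RefSeq gene IDs, and 2 had start windows. Python 3.11.15, pandas 2.3.3, numpy 2.4.6 and matplotlib 3.10.9 were used. Alternatives covered the pseudocount, filters, scaling, variance model, leaving out each library, a replicate block, and counting genes with identical regions once.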

Additional observations from a re-analysis of the deposited data

How the results depend on the processing

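The negative sign of the 4 genes held under each alternative run, except that Prx stood at 0.013 after quantile normalization. Erbb3 did not pass with a pseudocount of 1 (-2.17), with median centring (-0.66) or with quantile normalization (-0.72), and ranged from -1.38 to -1.17 with 1 library left out, passing only without male 1; with the replicate block it passed (limma adjusted p = 2.18e-04). It was not tested where the lowest 25% of genes by mean were left out, since it is among them, as are Pmp22 and Mbp. The number of genes lower in males was 0 with that filter, with median centring and with quantile normalization (2736, 436 and 426 lower at an unadjusted p under 0.05, limma), 416 without trend, and 0 to 6391 with 1 library left out, when 0 to 28 were higher. The replicate numbers are not tied to animals or batches in the labels, and deviations of same-numbered libraries correlated at 0.017 across genes. With the replicate block 6918 genes were lower and 7 higher, and Pmp22 (-0.67), Mbp (-0.63) and Prx (-0.62) passed. With 1 library left out Mbp ranged from -0.90 to -0.35, and Prx from -0.98 to -0.25 and passed without male 1. Where a sex is left with 1 library, that library is taken to vary like the other sex. The cause of these changes was not tested.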
